A study of Homo sapiens with 6 samples.

Results

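The 48 genes described here act in G2 and mitosis, and they were chosen by symbol for their role, with earlier results of these data known. The Ensembl identifiers of all 48 were found among the 21475 genes of the deposited tables, and all 48 passed the minimum level for testing, a mean of 0.5 FPKM over the libraries, as 12241 genes in all did. They were followed in RNA of 3 WT and 3 *FGFR2* KO HaCaT lines, 1 library per line. HaCaT cells are human keratinocytes that became immortal in culture without an added oncogene and carry an aneuploid genome. All lines were grown in high-glucose medium with serum, and the labels name no added cytokine or FGF. The KO lines were expanded from single cells that had received Cas9 with an sgRNA against an exon of *FGFR2*. The study describes its WT lines as the starting population and clonally expanded WT clones, and its sequenced WT lines as clonally expanded; the labels do not say which clone each library is. Each line is therefore, as far as stated, 1 clone, and differences between clones are part of the spread given here.

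A cell enters mitosis when cyclin B and the kinase CDK1 form an active complex, which CDC25 phosphatases switch on by removing inhibitory phosphates. Chromosomes then attach to spindle microtubules through kinetochores, and the spindle checkpoint holds back the anaphase-promoting complex (APC/C) until all of them are attached. Most of the genes involved are transcribed periodically, with their highest RNA levels in G2 and mitosis, and Ki67 (the product of *MKI67*) is the usual marker of cycling keratinocytes in the basal layer of the epidermis.

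This shared timing has been traced to promoter elements, and the promoters of the genes were therefore read. The cell cycle genes homology region, with the core TTTGAA, is bound by the MuvB complex, and CCAAT boxes are bound by NF-Y. RefSeq promoter windows from 250 bases before to 50 bases after the start were found for 41 of the 48 genes, with 51 annotated starts. On either strand, TTTGAA was present in 33 of the 51 windows (64.7%), against 15.2% of 35116 windows of all genes and 10.4% of 14283 windows of the genes tested here. CCAAT on either strand was present in 38 of the 51 (74.5%, against 34.6% of all windows), and both motifs in 27 (52.9%, against 5.90%). The motifs have too few letters in common to be counted from the same bases in full, and a match is a run of letters and not a measured binding site. The 100 bases upstream of the first listed start are shown for 3 genes that hold both motifs there (*PLK1*, *CCNB2* and *CDC20*) and for *ASPM* and *AURKB*, whose KO and WT values did not overlap, in the direction of transcription in GRCh38.p14, with TTTGAA and CCAAT or their reverse complements in capitals.
PLK1, chr16:23678789-23678888, plus strand: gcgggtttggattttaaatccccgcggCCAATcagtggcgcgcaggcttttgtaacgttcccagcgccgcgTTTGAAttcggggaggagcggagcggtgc
CCNB2, chr15:59105046-59105145, plus strand: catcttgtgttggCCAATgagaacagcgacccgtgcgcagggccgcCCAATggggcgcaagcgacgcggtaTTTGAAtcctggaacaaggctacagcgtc
CDC20, chr1:43358881-43358980, plus strand: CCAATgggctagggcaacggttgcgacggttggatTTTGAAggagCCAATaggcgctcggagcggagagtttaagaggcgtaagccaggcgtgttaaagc
ASPM, chr1:197146670-197146769, minus strand: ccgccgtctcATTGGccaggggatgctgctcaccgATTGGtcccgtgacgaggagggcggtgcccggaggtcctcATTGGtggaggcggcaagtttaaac
AURKB, chr17:8210226-8210325, minus strand: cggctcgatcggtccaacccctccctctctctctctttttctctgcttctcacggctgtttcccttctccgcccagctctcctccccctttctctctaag
*PLK1* held 1 CCAAT box upstream of 1 TTTGAA and *CCNB2* held 2, while in *CDC20* the TTTGAA lay between 2 CCAAT boxes. *ASPM* held 3 CCAAT boxes in reverse orientation and no TTTGAA in these 100 bases, with 1 further upstream at -113. *AURKB* held neither motif here. The window of each of its 2 listed starts held 1 CCAAT box, at -153 from the first start and at -129 from the second. *CENPE*, the remaining gene without overlap of the groups, held neither motif in its whole window. In GENCODE v44 the stretch of *CDC20* lies outside annotated exons of the gene, and the others reach into exons of transcripts that start further upstream. The genes with and without TTTGAA had similar differences between KO and WT: the median log2 fold change was -0.04 in the 30 genes with TTTGAA at any listed start and -0.05 in the 11 genes without it (KO against WT, as described below).

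All levels are the FPKM that the authors deposited, that is, fragments counted for a gene relative to its length and to the total of the library. From the steps of low values the libraries were estimated to hold 67800000 to 87900000 fragments, so that 1 fragment on 1 kb of transcript is worth 0.0114 to 0.0147 FPKM, far below the level of any of the 48 genes. *FGFR2*, the targeted gene, had 21.6, 39.7 and 15.0 FPKM in the WT libraries and 3.04, 2.26 and 4.31 FPKM in the KO libraries, in the order of the replicate numbers, and so was lower in every library labelled KO. *KRT5*, the basal keratin of keratinocytes, was at 6086 FPKM or more in every library. Of 16 markers of fibroblasts, melanocytes and immune cells, 11 were at or below 0.213 FPKM in all libraries, among them *COL3A1* and *PDGFRA* of fibroblasts, *MLANA* of melanocytes and *PTPRC* of immune cells. The rest were higher. *COL1A1* of fibroblasts was at 6.82 to 16.7 FPKM, *MITF* and *PMEL* of melanocytes at 0.529 to 4.01 and 0.697 to 2.43 FPKM. *CD14* of immune cells was at 0.662 to 1.62 FPKM. *DCN*, a proteoglycan gene of fibroblasts, stood out in WT replicate 2 with 15.5 FPKM, against at most 1.66 FPKM elsewhere. Mitochondrial genes took 21.5% to 27.6% of the FPKM in WT and 11.9% to 23.7% in KO libraries.

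All 48 genes were clearly expressed, and their levels ranged from 11.3 FPKM for *KIF15*, a spindle kinesin, to 432 FPKM for *ANLN*, the actin-binding scaffold of the cytokinetic ring (means over 6 libraries). The highest after *ANLN* were *TOP2A*, which decatenates chromosomes, at 377 FPKM, *PRC1*, which bundles microtubules of the central spindle, at 324 FPKM, and *PLK1*, the mitotic kinase, at 213 FPKM. The lowest after *KIF15* were *KIF14* at 12.9 FPKM, the checkpoint gene *MAD2L1* at 15.8 FPKM and *CDC25C* at 16.1 FPKM. FPKM is corrected for length, so these levels can be set side by side, but neighbours in the order such as *KIF15* and *KIF14* overlapped in their values.

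To determine how loss of FGFR2 goes with these genes, KO and WT libraries were compared with limma on log2(FPKM + 0.5) over all 12241 tested genes, a scale on which a fold change slightly understates that of genes with low levels. The call asked for an adjusted p no higher than 0.05 together with a log2 fold change beyond 0.5 in either direction. It was met by 0 of the 48 genes and by 0 of all 12241 (0.0%), and the smallest adjusted p was 0.261, a value that *ASPM* shared. *FGFR2*, the targeted gene, had a log2 fold change of -2.73 with the same adjusted p and was not called either. The study, which tested estimated counts with DESeq2, did report differentially expressed genes at an FDR of 0.05, *FGFR2* among them. The absence of a call here is therefore no sign that a gene was unchanged. When the p was left unadjusted and the fold change kept, 0 of the 48 genes were past what is called the unadjusted threshold below, beside 12.5% of all tested genes, 10.2% higher and 2.33% lower in KO. When the fold change was dropped too, 3 of the 48 were past it (*ASPM*, *AURKB* and *CENPE*), beside 16.9% of all tested genes. The largest difference in size was -0.50, and the median log2 fold change of the 48 genes was -0.03, beside 0.09 for all tested genes. The log2 fold change was above 0 in 18 of the 48 genes (37.5%) and in 60.6% of all tested genes. It compares means of log2 values, and for *ANLN*, *BUB1*, *INCENP* and *AURKA*, all at 0.00 to 0.03, the mean FPKM was nonetheless slightly lower in KO. Genes are counted as above or below 0 by their log2 fold change throughout.

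The standard errors lay between 0.13 and 0.31, and in 47 of the 48 genes the 95% confidence interval of the log2 fold change lay within a doubling or halving, that is, between -1 and 1, as it did in 9112 of all 12241 tested genes. The exception was *MKI67*, whose interval began at -1.03. In 45 of the 48 genes the KO and WT values overlapped. *AURKB* was the 1 gene with each KO value above each WT value, and *ASPM* and *CENPE* were the 2 with each KO value below, while among all tested genes the groups did not overlap in 24.1%, with KO above in 18.3% and below in 5.77%. For a single gene, 3 libraries against 3 cannot give a two-sided exact permutation p under 0.1.

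**Figure D1:**
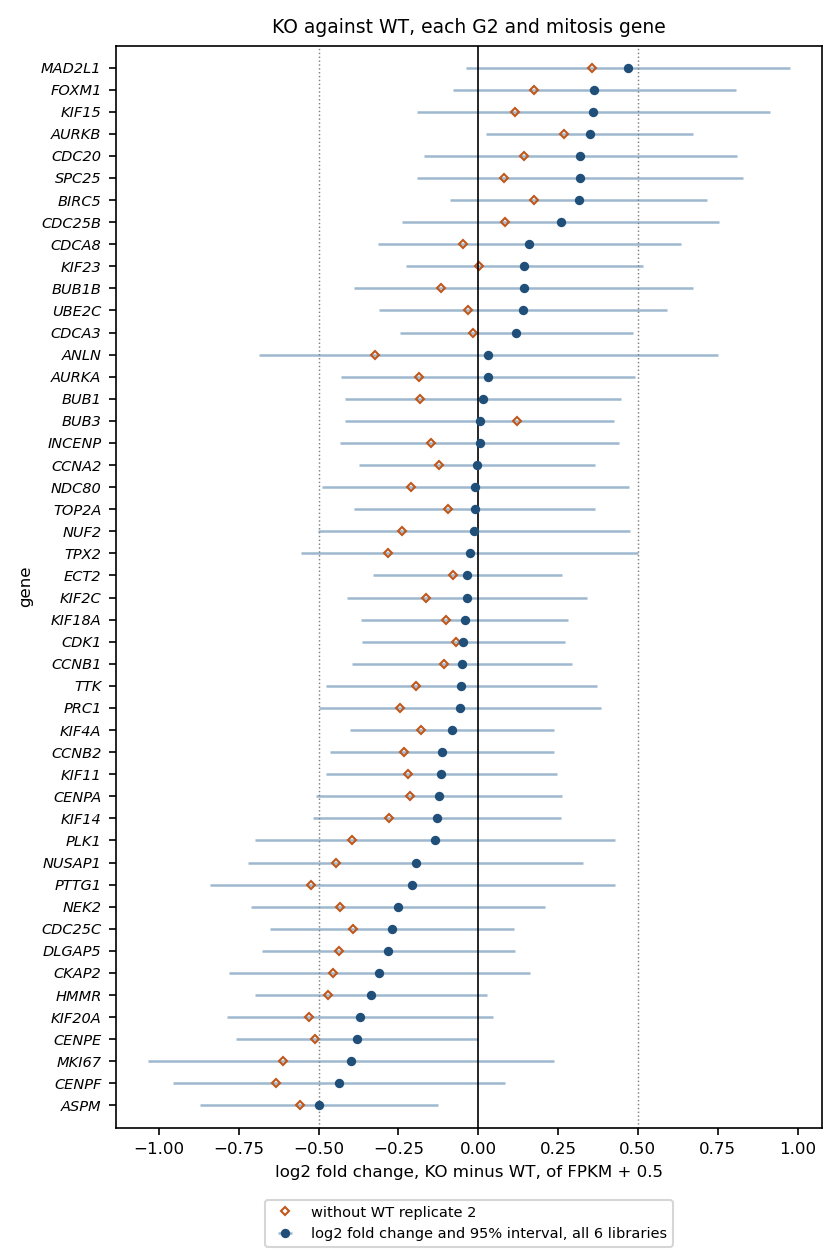
Log2 fold change between KO and WT (KO minus WT, of FPKM + 0.5) of each of the 48 genes, with its 95% confidence interval from limma (filled points, all 6 libraries) and the value without WT replicate 2 (open diamonds). Dotted lines mark -0.5 and 0.5; the filled points lie between -0.50 for *ASPM* and 0.47 for *MAD2L1*, and most diamonds lie to the left of their points.

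Of the 9 genes that start mitosis, 3 had a log2 fold change above 0, and the group had a median of -0.05. *CCNB1*, the main mitotic cyclin (ENSG00000134057, chromosome 5 from 69167135 to 69178245), was at 155, 148 and 177 FPKM in the WT and 160.5, 134 and 168 FPKM in the KO libraries, each in the order of replicates 1, 2 and 3. Its log2 fold change was -0.05 (95% interval -0.40 to 0.29, adjusted p = 0.879 from limma). The KO values of this gene thus lay among and just below the WT values. *CDK1*, its kinase (ENSG00000170312, chromosome 10 from 60778331 to 60794852), was at 62.9, 61.3 and 65.8 FPKM in WT and 57.9, 56.3 and 70.5 FPKM in KO, a log2 fold change of -0.05 (interval -0.36 to 0.27, adjusted p = 0.878). It was the steadiest of the group in WT, with an SD of 2.30 FPKM around 63.3 FPKM (n = 3). *CCNB2* and *CCNA2*, the other cyclins, had log2 fold changes of -0.11 and 0.00.

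*PLK1*, which promotes mitotic entry and spindle assembly (ENSG00000166851, chromosome 16 from 23677656 to 23690367), was at 264, 152 and 259 FPKM in WT and 210.1, 223 and 168 FPKM in KO. All 3 KO values thus fell in the gap between WT replicate 2 and the other 2 WT libraries, and the log2 fold change was -0.13 (interval -0.70 to 0.43, adjusted p = 0.792). *FOXM1*, the transcription factor that drives many genes of this list (ENSG00000111206, chromosome 12 from 2857680 to 2877174), was at 181, 118 and 169 FPKM in WT and 178, 205 and 212 FPKM in KO. Its log2 fold change was 0.36 (interval -0.08 to 0.81, adjusted p = 0.363), and it was 0.18 without WT replicate 2. Of the phosphatases that activate CDK1, *CDC25B* had a log2 fold change of 0.26 and *CDC25C* of -0.27, with adjusted p of 0.547 and 0.422 (limma), and the intervals of both included 0. *CDCA3*, a gene of a ubiquitin ligase component that aids mitotic entry, was at 0.12.

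Of the 6 Aurora kinases and partners, 5 had a log2 fold change above 0, of which *INCENP* and *AURKA* were at 0.00 and 0.03, and the median was 0.10. *AURKB*, the kinase of the chromosomal passenger complex that corrects faulty attachments (ENSG00000178999, chromosome 17 from 8204733 to 8210600), was at 98.9, 77.1 and 83.9 FPKM in WT and 107, 107 and 115 FPKM in KO. Each KO library lay above each WT library, the mean was 127% of that in WT, and the log2 fold change was 0.35 ± 0.14 (standard error, interval 0.03 to 0.67, adjusted p = 0.280 from limma; two-sided exact permutation p = 0.1). The other passenger genes had lower values: *BIRC5* (survivin) had a log2 fold change of 0.31, *CDCA8* (borealin) of 0.16 and *INCENP*, the scaffold, of 0.00.

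*AURKA*, the kinase of spindle poles (ENSG00000087586, chromosome 20 from 56369389 to 56392337), was at 93.7, 61.6 and 99.9 FPKM in WT and 86.5, 88.8 and 79.8 FPKM in KO. The means were 85.0 FPKM in both groups, with an SD of 20.6 FPKM in WT and 4.65 FPKM in KO (n = 3 each). *TPX2*, its activator on the spindle, was at 155, 90.3 and 153 FPKM in WT and 122, 140.1 and 118 FPKM in KO, a log2 fold change of -0.03 (interval -0.55 to 0.50). For both genes the KO libraries lay inside the WT range, and WT replicate 2 was the lowest of the 6.

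Of the 5 spindle checkpoint genes, 4 had a log2 fold change above 0, of which *BUB3* and *BUB1* were at 0.00 and 0.01, and all 5 missed the unadjusted threshold. *BUB1B*, which encodes the APC/C inhibitor BUBR1 (ENSG00000156970, chromosome 15 from 40161023 to 40221123), was at 139, 86.4 and 158 FPKM in WT and 128, 137 and 146 FPKM in KO. Its log2 fold change was 0.14 (interval -0.39 to 0.67, adjusted p = 0.765). *MAD2L1*, which encodes the MAD2 protein that binds CDC20 at unattached kinetochores (ENSG00000164109, chromosome 4 from 120055623 to 120066858), had the highest log2 fold change of the 48 genes and is given for that reason, chosen after its values were seen. It was at 13.8, 11.1 and 14.4 FPKM in WT and 20.3, 13.4 and 22.1 FPKM in KO, a log2 fold change of 0.47 (interval -0.04 to 0.98, adjusted p = 0.318). KO replicates 1 and 3 were above all WT libraries, whereas KO replicate 2 lay among them. The kinases *BUB1* and *TTK* were at 0.01 and -0.05, and *BUB3*, a partner of both BUB proteins, at 0.00 with the reverse order of WT libraries, WT replicate 2 being the highest of the WT at 50.2 FPKM.

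In the centromere and kinetochore group, 1 of 6 genes had a log2 fold change above 0, and the median was -0.07. *CENPE*, the kinetochore kinesin that carries chromosomes to the spindle equator (ENSG00000138778, chromosome 4 from 103105349 to 103198445), was at 29.3, 21.0 and 26.3 FPKM in WT and 19.8, 20.6 and 17.6 FPKM in KO. Each KO library lay below each WT library, by as little as 0.38 FPKM between WT replicate 2 and KO replicate 2, and the log2 fold change was -0.38 ± 0.16 (standard error, adjusted p = 0.296 from limma; two-sided exact permutation p = 0.1). *CENPF*, a large kinetochore protein that accumulates in G2 (ENSG00000117724, chromosome 1 from 214603185 to 214664574), was at 213, 142 and 213 FPKM in WT and 124, 174 and 120 FPKM in KO. KO replicates 1 and 3 were below all WT libraries and KO replicate 2 was not (log2 fold change -0.44, interval -0.96 to 0.08, adjusted p = 0.352). The NDC80 complex, which grips microtubules, had no shared direction: *NDC80* and *NUF2* both had a log2 fold change of -0.01 and *SPC25* of 0.32. *CENPA*, the centromeric histone, was at -0.12.

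Among the 8 kinesins *KIF23* and *KIF15* had a log2 fold change above 0 and the other 6 one below 0, for a group median of -0.06. *KIF20A*, the kinesin of the midzone that brings the passenger complex there (ENSG00000112984, chromosome 5 from 138178719 to 138187723), was the most abundant, with 182, 129 and 179 FPKM in WT and 127, 138 and 111 FPKM in KO. Its log2 fold change was -0.37 (interval -0.79 to 0.05, adjusted p = 0.332), and WT replicate 2 lay among the KO libraries. *KIF15*, a spindle motor that can stand in for *KIF11*, had a log2 fold change of 0.36, and *KIF11* itself of -0.12. The remaining kinesins, among them *KIF18A*, *KIF2C* and *KIF4A*, lay between -0.13 and 0.14.

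All 6 genes of spindle and centrosome proteins had a log2 fold change below 0, with a median of -0.30, the lowest of the 9 groups. *ASPM*, which holds microtubule minus ends at the spindle poles (ENSG00000066279, chromosome 1 from 197084121 to 197146694), had the smallest p of the 48 genes and is given for that reason, chosen after its values were seen. It was at 38.5, 29.8 and 29.6 FPKM in WT and 25.8, 21.2 and 21.5 FPKM in KO. Each KO library lay below each WT library, the mean was 70.0% of that in WT, and the log2 fold change was -0.50 ± 0.16 (standard error, interval -0.87 to -0.13, adjusted p = 0.261 from limma; two-sided exact permutation p = 0.1). *NUSAP1*, a microtubule cross-linker (ENSG00000137804, chromosome 15 from 41320794 to 41381050), was at 221, 132 and 222 FPKM in WT and 164, 180 and 146 FPKM in KO, a log2 fold change of -0.20 (interval -0.72 to 0.33, adjusted p = 0.670). Here the KO libraries again lay between WT replicate 2 and the other 2 WT libraries. The log2 fold changes of *HMMR*, *CKAP2*, *DLGAP5* and *NEK2* were -0.34, -0.31, -0.28 and -0.25, and the KO and WT values of each of them overlapped.

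The 3 genes of cytokinesis had a median log2 fold change of -0.03, and their intervals all included 0. *ANLN* (ENSG00000011426, chromosome 7 from 36389821 to 36453791) was at 450.5, 252 and 622 FPKM in WT and 418, 449.6 and 402 FPKM in KO, so the WT libraries spread far more widely than the KO libraries (SD 185 and 24.3 FPKM, n = 3 each). Its log2 fold change was 0.03, with the widest interval of the 48 genes (-0.69 to 0.75). *PRC1* and *ECT2*, the activator of RhoA at the cleavage furrow, had log2 fold changes of -0.06 and -0.03. The interval of *ECT2*, -0.33 to 0.26, was the narrowest of the 48.

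*TOP2A* (ENSG00000131747, chromosome 17 from 40388525 to 40417896) was at 427, 334 and 373 FPKM in WT and 341, 421 and 363 FPKM in KO, a log2 fold change of -0.01 (interval -0.39 to 0.37, adjusted p = 0.982). *MKI67* (ENSG00000148773, chromosome 10 from 128096659 to 128126423) was at 144, 88.1 and 132 FPKM in WT and 66.4, 125 and 88.0 FPKM in KO. The groups overlapped, with KO replicate 1 the lowest of all 6 libraries and KO replicate 2 among the WT, and the log2 fold change was -0.40 (interval -1.03 to 0.24, adjusted p = 0.469). It was -0.18 without KO replicate 1 and -0.63 without KO replicate 2.

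The activators and substrates of the APC/C differed in direction. *CDC20*, which directs the APC/C to its substrates in anaphase (ENSG00000117399, chromosome 1 from 43358981 to 43363203), was at 162, 122 and 192 FPKM in WT and 198, 162 and 231 FPKM in KO, a log2 fold change of 0.32 (interval -0.17 to 0.81, adjusted p = 0.453). *UBE2C*, its ubiquitin-conjugating enzyme (ENSG00000175063, chromosome 20 from 45812576 to 45816957), was at 182, 142 and 228 FPKM in WT and 220.0, 186 and 192 FPKM in KO, a log2 fold change of 0.14 (interval -0.31 to 0.59, adjusted p = 0.727). *PTTG1*, which encodes securin, the inhibitor of separase that this pair removes, had a log2 fold change of -0.21 and a WT range of 78.0 to 152 FPKM. The KO and WT values of all 3 genes overlapped.

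**Figure D2:**
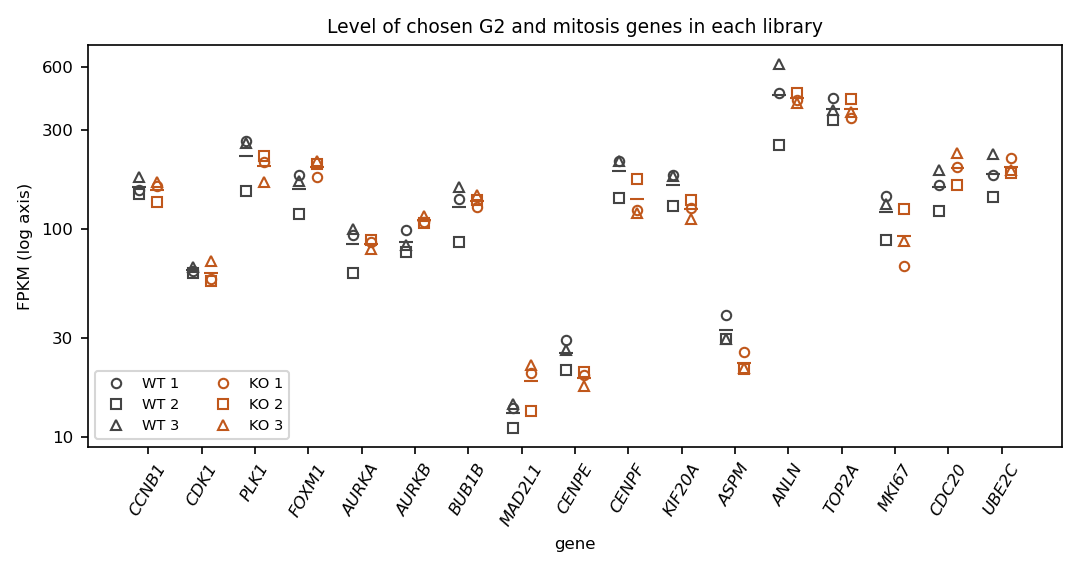
FPKM on a log axis of 17 of the genes in each of the 6 libraries, with WT in grey to the left and KO in orange to the right of each gene, a marker shape per replicate number and a short line at each group mean. *ASPM* and *CENPE* have all KO points below the WT points and *AURKB* all above, and in most other genes the square of WT replicate 2 lies apart at the lower end of the WT.

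The WT lines differed among themselves in a way that nearly all of the 48 genes shared. WT replicate 2 was below both other WT libraries in 46 of the 48 genes (95.8%, against 35.4% of all tested genes) and the lowest of all 6 libraries in 31 of them (64.6%, against 26.1%). The median log2 difference between WT replicate 2 and the mean of the other 2 WT libraries was -0.45 over the 48 genes and 0.05 over all tested genes. *ECT2*, *CCNB1* and *CDK1* were among the genes with the smallest gap, whereas *ANLN*, *PTTG1* and *PLK1* had the widest. *BUB3* was higher in WT replicate 2 than in the other WT libraries, and *ASPM* stood just above its level in WT replicate 3. WT replicate 2 was also the library with the highest *FGFR2* level and the lowest estimated depth, and 6 of the 16 markers of other cell types were highest in it: *DCN*, *COL1A1* (16.7 FPKM, against 6.82 to 15.0 FPKM), *PMEL*, *CD14*, *LYZ* and *DCT*, the last at 0.01 FPKM. The 6 fibroblast markers summed to 32.3 FPKM there and to 6.91 to 15.3 FPKM elsewhere, while *COL1A2*, *COL3A1*, *PDGFRA* and *PDGFRB* were at or below 0.0638 FPKM in every library. The 10 keratinocyte markers summed to 11454 FPKM in WT replicate 2 and to 14933 to 27097 FPKM elsewhere. Most of that sum came from 2 keratins, *KRT5* at 6086 FPKM and *KRT14* at 2793 FPKM. *KRT5*, *KRT14*, *ITGA6* and *SFN* were lowest in WT replicate 2, *LAMB3* and *CDH1* were highest there, and the other keratinocyte markers were neither. The part of these in the result was not tested. In bulk RNA, fewer cells in G2 and mitosis and less RNA of these genes per cell cannot be told apart.

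Over the 48 genes the KO lines differed less among themselves than the WT lines did with WT replicate 2 included. The SD between lines on the log2 scale had a median of 0.27 in WT and 0.14 in KO over the 48 genes, and it was larger in WT in 40 of the 48 (83.3%), whereas over all tested genes the medians were 0.20 and 0.23 and the WT SD was the larger in 43.7%. In 20 of the 48 genes (41.7%) all 3 KO values lay inside the range of the WT values, against 13.3% of all tested genes. The level of the list in a library, given as its median log2 difference to the mean of the WT lines, was 0.13, -0.30 and 0.18 for WT and 0.01, -0.03 and -0.06 for KO, so each KO library lay between WT replicate 2 and the other WT libraries. The WT SD includes WT replicate 2, whose shift nearly all of the 48 genes shared. A larger WT SD in so many genes is therefore not separate from that shift.

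How the KO lines compare with WT therefore depended on 1 library. Without WT replicate 2, the median log2 fold change of the 48 genes was -0.18 (beside 0.11 for all tested genes), and 38 of the 48 were below 0. Past the unadjusted threshold were 5 of the 48 (*ASPM*, *CENPE*, *CENPF*, *KIF20A* and *PTTG1*), all lower in KO. Of all tested genes 9.32% were past it, counted in either direction. The count of 5 lies near that share and is not read as a result about the 48 genes. All 3 KO values were then below both WT values in 22 of the 48 genes (45.8%, against 8.76% of all tested genes) and above both in 1. None of the 48 was called after adjustment in this fit either, with a smallest adjusted p of 0.428. Among single genes with a log2 fold change above 0, the value without WT replicate 2 was 0.14 for *CDC20*, 0.18 for *BIRC5*, 0.09 for *CDC25B*, 0.08 for *SPC25* and 0.12 for *KIF15*. Among those below 0 it was -0.39 for *PLK1*, -0.44 for *NUSAP1* and -0.52 for *PTTG1*. Without WT replicate 1 or WT replicate 3 the median was 0.01 or 0.02.

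**Figure D3:**
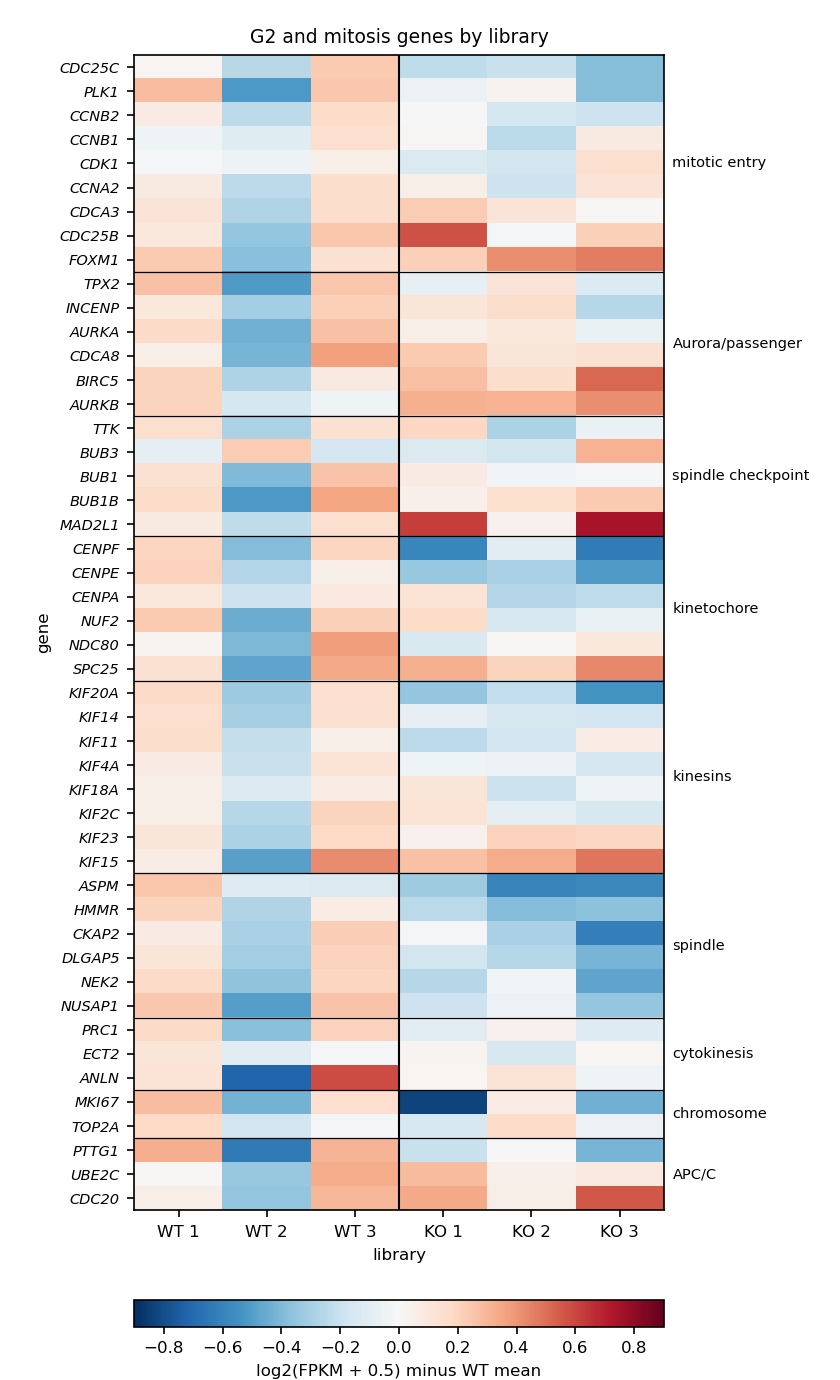
Log2 difference of each of the 48 genes from its WT mean (colour, log2(FPKM + 0.5)) in each library, with genes in rows grouped by role and ordered by fold change, and libraries in columns. The column of WT replicate 2 is blue in 47 of 48 rows, and the red and blue cells of the KO columns are divided between genes.

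Within the list, the 4 genes with the lowest log2 fold changes (*ASPM*, *CENPF*, *MKI67* and *CENPE*) were also the 4 whose canonical transcript is longer than 8000 bases, from 8541 bases for *CENPE* to 12716 bases for *MKI67*. Their median was -0.42, against -0.02 for the other 44 genes. The cut of 8000 bases was not set in advance, and it falls between *CENPE* and *BUB3*, at 7703 bases. As it sets apart the 4 lowest genes, the contrast of these medians follows from the cut and is no test of length. Among all 1011 tested genes with a transcript of that length the median was -0.01. With the trend of the differences on transcript length removed in each library, the log2 fold changes of *ASPM*, *CENPF*, *MKI67* and *CENPE* were -0.50, -0.45, -0.39 and -0.41. That removal lowered the other genes of the list too, *KIF20A* to -0.48 and *HMMR* to -0.45. *MKI67* and *CENPE* were then no longer among the 4 lowest. The median of the 48 genes moved from -0.03 to -0.15. Over the 48 genes, length and log2 fold change had a Spearman's rho of -0.18, a correlation across genes of the same 6 libraries. *BUB3* and *KIF14*, the next in length, were at 0.00 and -0.13.

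4 of the genes, *CDK1*, *KIF11*, *BUB3* and *MKI67*, lie on chromosome 10, as *FGFR2* does. On the log2 scale and relative to the median of the library, the 463 tested genes of that chromosome had medians of -0.43, -0.16 and -0.19 in KO. In WT these were 0.02, 0.14 and -0.16, each in the order of the replicate numbers. The 4 genes were at -0.13, -0.24, -0.13 and -0.83 from their WT means in KO replicate 1. After centring every chromosome of a library on its own median, their log2 fold changes between KO and WT were 0.11, 0.05, 0.17 and -0.24, in place of -0.05, -0.12, 0.00 and -0.40. The direction for *CDK1* and *KIF11* thus changed with this correction.

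To place the 48 genes in the wider machinery, 112 other genes of G2 and mitosis were read from a list written by role. All 112 were tested, 0 were called after adjustment, and 21 were past the unadjusted threshold with a higher level in KO (18.8%, against 10.2% of all tested genes), while 0 were lower. The median log2 fold change was 0.28, with 87 of the 112 above 0 (77.7%, against 60.6% of all tested genes), and without WT replicate 2 the median was 0.16. The kinetochore genes outside the 48, mostly of the constitutive centromere network and its assembly factors, had a log2 fold change above 0 in 31 of 35 (8 at the unadjusted threshold), condensin in 6 of 8 (2 at the threshold), subunits and inhibitors of the APC/C in 14 of 17 (2 at the threshold), cohesion genes in 9 of 13 (3 at the threshold), regulators of entry and exit in 11 of 14 (2 at the threshold), MuvB and B-MYB in 5 of 6 (2 at the threshold) and other spindle and midbody genes in 11 of 19 (2 at the threshold). Among all tested genes 60.6% were above 0, and 10.2% were past the threshold and higher in KO. Other spindle and midbody genes (57.9% and 10.5%) lay near both shares. The APC/C genes (11.8%) lay near the second share, and the cohesion genes (69.2%) not far above the first. The 3 of the 112 genes with the smallest p were *RCC1*, the exchange factor of Ran, *CDC25A*, a CDK-activating phosphatase with a role in S phase too, and *TRIP13*, the ATPase that disassembles checkpoint complexes. *RCC1* was at 37.6, 31.2 and 48.2 FPKM in WT and 91.3, 58.9 and 127 FPKM in KO, a log2 fold change of 1.19 ± 0.29 (standard error, adjusted p = 0.261 from limma). The KO libraries also lay above the WT libraries for *CDC25A* and *TRIP13*, with log2 fold changes of 1.21 and 1.05 and the same adjusted p.

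The genes of the preceding phase were read in the same libraries for comparison, from a list of 40 DNA replication genes that was known from earlier results to be higher in KO. All 40 had a log2 fold change above 0, against 60.6% of all tested genes, with a median log2 fold change of 0.92. Past the unadjusted threshold and higher in KO were 37 of the 40 (92.5%, against 10.2% of all tested genes), while 0 were called after adjustment. By library, in the order of the replicate numbers, their median stood at 0.07, -0.40 and 0.35 for WT and at 0.72, 0.68 and 1.35 for KO. In the WT libraries the medians of the replication genes and of the 48 genes differed by at most 0.16, and in the KO libraries the replication genes were higher by 0.70, 0.71 and 1.40. WT replicate 2 was thus the lowest library for both lists, but the separation of KO from WT was seen in the replication list and not in the 48 genes. As the replication list was known to be higher in KO in these data, its separation is no independent result. No test was run on this difference between lists.

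**Figure D4:**
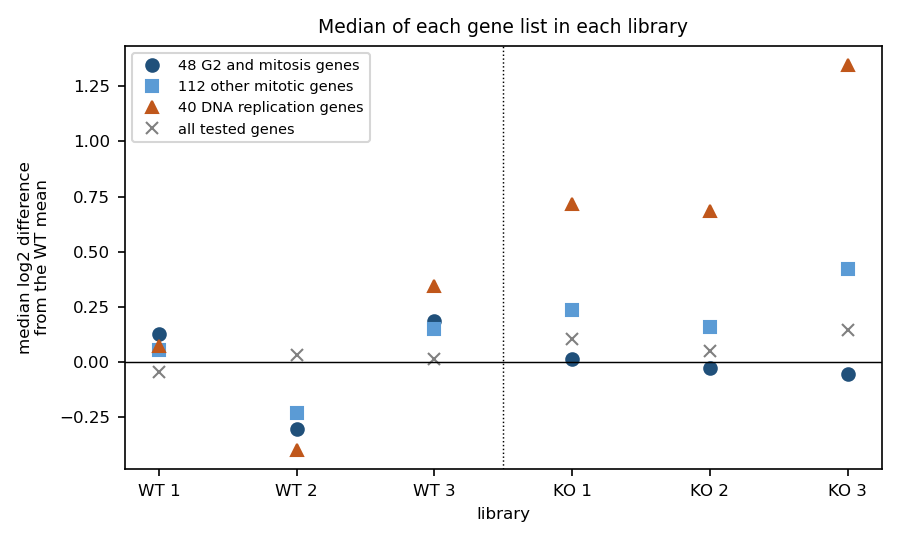
Median log2 difference from the WT mean (vertical axis) in each of the 6 libraries (horizontal axis) for the 48 G2 and mitosis genes, 112 other mitotic genes, 40 DNA replication genes and all 12241 tested genes. The 48 genes lie between -0.06 and 0.01 in the KO libraries, where the replication genes lie between 0.68 and 1.35, and both lists are lowest in WT replicate 2.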

How the data were processed

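Per the labels and the study's methods, poly(A) RNA was sequenced as stranded paired-end libraries. The authors trimmed reads with fastp 0.20.0, pseudoaligned them with kallisto 0.46.1 to GRCh38 with GENCODE gene models and deposited FPKM for each gene and library. How FPKM was derived from the estimated counts is not given in the sources used here. Of 21493 listed genes, 18 Y copies of pseudoautosomal genes were left out. Symbols, positions and canonical transcripts came from GENCODE v44 (21400 genes matched), which is also GRCh38.

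Depth was estimated from the steps of low values in genes with 1 transcript. Whole fragments within 0.02 were found for 59.1% of 4843 values (4% by chance), which is too few to recover counts, and no count model was run. Genes averaging 0.5 FPKM or more were fitted with limma 3.58.1 (R 4.3.3, trended empirical Bayes) on log2(FPKM + 0.5), with Benjamini-Hochberg adjustment over 12241 genes; the fit was tested on simulated data. The libraries are separate cell lines. The deviations of same-numbered WT and KO libraries from their group means had correlations of -0.21, 0.22 and 0.05. Those of libraries with unlike numbers ran from -0.37 to 0.29. With 3 lines per group this cannot decide whether the numbers pair libraries, and the main fit used no pairing.

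Members, lists and groups by role were chosen with earlier results of these data known. All 48 members may be named; those given in full are 11 fixed genes (*CCNB1*, *CDK1*, *PLK1*, *AURKA*, *AURKB*, *BUB1B*, *CENPE*, *FOXM1*, *CDC20*, *TOP2A* and *MKI67*), the most abundant of each of the 9 groups, any past the unadjusted threshold, and 2 more that are named as chosen after their values were seen. From the list of other genes, up to 3 per direction past the unadjusted threshold were named. Alternatives were other pseudocounts, filters and scalings, a replicate block, library weights, removal of chromosome medians, each library left out and, added after the data were seen, removal of the length trend.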

Additional observations from a re-analysis of the deposited data

How the results depend on the processing

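Under 17 alternatives, 0 genes were called after adjustment in 16. In 1, library quality weights, 1396 of all 12241 tested genes were, *FGFR2* (log2 fold change -2.66) among them. They included 5 of the 48 genes (*ASPM* -0.64, *CENPE* -0.54, *CENPF* -0.65, *KIF20A* -0.50 and *MKI67* -0.80). WT replicate 1 had a weight of 10.3 there, against 0.36 to 1.49 for the other libraries. The number of the 48 genes past the unadjusted threshold, 0 with all libraries, is given with the share of all tested genes past it in either direction. It was 1 (*ASPM*, at -0.50 before) with a pseudocount of 0.1 (12.9%), median-of-ratios scaling (10.7%), quantile normalization (10.7%), chromosome medians removed (10.3%) or the length trend removed (10.6%). With library weights it was 5 (17.7%). With 1 library left out it was 5 without WT replicate 2 (9.32%) and 3 without KO replicate 2 (*CENPF*, *MAD2L1* and *MKI67*, 18.5%). It was 2 without WT replicate 3 (*ASPM* and *KIF15*, 15.9%), 1 without KO replicate 1 (*ASPM*, 12.8%) and 0 without WT replicate 1 (7.85%) or KO replicate 3 (5.17%). The median log2 fold change of the 48 genes was between -0.18 and 0.02 with 1 library left out. Median-of-ratios scaling, under which all tested genes had a median of 0.00 in place of 0.09, gave -0.13 with 35 of 48 lower. Quantile normalization gave -0.15, chromosome medians removed -0.12, the length trend removed -0.15, library weights -0.11 and TPM scaling 0.00. The replicate block left it at -0.03 with 0 of the 48 genes past the unadjusted threshold and 0 genes called, with a smallest adjusted p of 0.0972.

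Directions close to 0 turned in 9 of the 19 genes given in full. *ANLN* was at -0.063 with median-of-ratios scaling, -0.033 with quantile normalization, -0.10 with library weights, -0.065 with chromosome medians removed and -0.063 with the length trend removed, and *AURKA* at -0.066, -0.084, -0.11, -0.14 and -0.11 in the same order. *BUB1B* was at -0.056 with library weights, *CDK1* at 0.11 and *UBE2C* at -0.026 with chromosome medians removed, and *TOP2A* at 0.028 and *TPX2* at 0.011 with TPM scaling. With 1 library left out, the ranges were -0.32 to 0.33 for *ANLN*, -0.19 to 0.16 for *AURKA*, -0.12 to 0.32 for *BUB1B*, -0.12 to 0.045 for *CCNB1*, -0.15 to 0.013 for *CDK1*, -0.39 to 0.0024 for *PLK1*, -0.096 to 0.081 for *TOP2A*, -0.28 to 0.11 for *TPX2* and -0.033 to 0.31 for *UBE2C*; the cause was not tested. Without a change of direction, they were 0.14 to 0.47 for *CDC20*, 0.18 to 0.48 for *FOXM1*, -0.63 to -0.18 for *MKI67* and -0.44 to -0.069 for *NUSAP1*. All 48 genes lie far above the level of 1 fragment, and each group has 3 lines.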
